A study of Homo sapiens with 6 samples.

Results

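The lysosome and autophagy genes described here are a list of 48 genes, chosen by name for their roles in autophagy, lysosomal digestion and lysosomal acidification. Earlier results of these data were known when the list was chosen. The list was taken by gene symbol from the deposited table of 13696 distinct genes, and 46 of the 48 had values. CTSZ and ULK2 were not analysed here. All 46 passed the filter of a mean of at least 1 CPM (read counts scaled to a common library total), so they are 46 of the 13616 genes tested. They were sorted by role into 4 regulators, 24 genes of the autophagy machinery, 4 lysosomal membrane proteins, 9 lysosomal enzymes or cofactors and 5 subunits of the proton pump.

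The 3 pre-dose libraries came from hTERT RPE-1 cells exposed to 25 nM camptothecin for 1 h and harvested 24 h after the drug was removed. The 3 untreated libraries came from the same line without drug. hTERT RPE-1 is a human retinal pigment epithelial line immortalised with telomerase, and camptothecin is a poison of DNA topoisomerase 1. The comparison asks which poly-A selected transcripts differ a day after a low dose was removed. The labels do not state whether the replicates were separate cultures, so p-values describe the spread between these libraries, which may be technical.

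Autophagy wraps cytoplasm in a double membrane, the autophagosome, which fuses with the lysosome, where acid hydrolases digest the contents. The ULK1 kinase complex starts the process, a lipid kinase complex built around BECN1 marks the growing membrane, and ATG8-family proteins are coupled to its lipids by an enzyme cascade resembling ubiquitin conjugation. The lysosome is kept acid by the vacuolar proton pump. Many of these genes are targets of TFEB and TFE3, basic helix-loop-helix factors that bind a palindromic promoter sequence, the CLEAR element. DRAM1 is a lysosomal protein first described as a target of p53, the factor that DNA damage activates.

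The CLEAR core was searched in the RefSeq promoters (GRCh38.p14), which run from 250 bases before to 50 bases after each annotated start. The letters searched were TCACGTGA, which read the same on both strands and contain the shorter E-box CACGTG. RefSeq windows were at hand for 39 of the 48 listed genes, and 5 of the 39 (12.8%) held the core. The shares were 1.18% of the 27305 genes with a window, 1.65% of the protein-coding ones and 2.28% of those in the deposited table. The list was chosen by name and holds many known targets of these factors, so its higher share describes that choice and is not a finding. CACGTG alone was found for 7 of the 39 (17.9%), against 8.78% of all genes with a window and 12.4% of those in the deposited table. The windows with the core are shown because they hold the letters that the factors heading the list are known to bind. They are printed 5′ to 3′ on the strand of the gene, with each TCACGTGA in capitals.
LAMP1 (chr13:113296989-113297288, + strand): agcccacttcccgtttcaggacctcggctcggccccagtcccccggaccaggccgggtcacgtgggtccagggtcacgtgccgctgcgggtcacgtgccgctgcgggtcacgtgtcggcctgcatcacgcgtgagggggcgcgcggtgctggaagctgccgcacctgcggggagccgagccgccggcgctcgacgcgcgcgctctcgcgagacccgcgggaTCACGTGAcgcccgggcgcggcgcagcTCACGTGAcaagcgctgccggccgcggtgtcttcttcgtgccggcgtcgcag
MCOLN1 (chr19:7522374-7522673, + strand): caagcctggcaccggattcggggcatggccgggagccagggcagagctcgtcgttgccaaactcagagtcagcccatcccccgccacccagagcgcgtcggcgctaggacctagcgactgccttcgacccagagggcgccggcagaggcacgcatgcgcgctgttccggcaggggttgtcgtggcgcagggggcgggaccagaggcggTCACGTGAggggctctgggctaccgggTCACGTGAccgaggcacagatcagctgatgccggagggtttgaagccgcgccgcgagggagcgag
CTSA (chr20:45891085-45891384, + strand): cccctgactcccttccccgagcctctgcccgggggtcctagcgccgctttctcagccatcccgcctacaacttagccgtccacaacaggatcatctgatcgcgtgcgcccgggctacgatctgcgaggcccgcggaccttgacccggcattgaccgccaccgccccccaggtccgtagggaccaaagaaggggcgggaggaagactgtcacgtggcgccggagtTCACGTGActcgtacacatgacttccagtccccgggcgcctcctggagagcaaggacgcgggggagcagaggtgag
ATP6V0D1 (chr16:67481108-67481407, - strand): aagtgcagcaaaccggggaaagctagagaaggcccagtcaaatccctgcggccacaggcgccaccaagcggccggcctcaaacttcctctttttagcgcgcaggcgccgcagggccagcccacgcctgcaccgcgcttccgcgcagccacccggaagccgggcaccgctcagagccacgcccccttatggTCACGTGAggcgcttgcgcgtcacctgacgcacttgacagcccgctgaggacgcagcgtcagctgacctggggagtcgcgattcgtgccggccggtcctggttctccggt
ATG3 (chr3:112561913-112562212, - strand): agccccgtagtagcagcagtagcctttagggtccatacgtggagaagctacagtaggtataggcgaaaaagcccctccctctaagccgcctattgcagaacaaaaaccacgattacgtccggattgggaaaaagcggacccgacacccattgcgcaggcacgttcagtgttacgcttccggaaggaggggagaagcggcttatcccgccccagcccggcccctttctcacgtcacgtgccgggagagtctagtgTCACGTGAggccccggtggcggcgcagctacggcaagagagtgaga
The LAMP1 window held TCACGTGA at 2 places and CACGTG at 6, counting those inside the longer match. MCOLN1 had 2 cores, and CTSA, ATP6V0D1 and ATG3 had 1 each. A match is a run of letters, and whether TFEB or TFE3 binds there was not measured. The 5 encode a membrane glycoprotein, a channel, a protease, a pump subunit and an enzyme of the conjugation cascade.

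If the lowest value of each library is read as 0 counts plus 0.5, its total comes to between 26336941 and 31780391 reads. At these totals 3 counts equal 0.0944 to 0.114 CPM, far below every gene described. Both replicate 1 libraries stood apart from the other 4, so values within each replicate pair, and within replicates 2 and 3 alone, are given where they differ. Pairs follow the replicate numbers of the titles, and the values do not show whether replicates 2 and 3 belong together as numbered. Of 10 markers of retinal pigment epithelium, BEST1, MITF and OTX2 had values, summing to 66.9 to 73.5 CPM in pre-dose and 65.4 to 69.3 CPM in untreated libraries, and the other 7, RPE65 among them, were not analysed here. The simple-epithelium keratins KRT8 and KRT18 summed to 1296 to 1334 CPM in pre-dose and 1305 to 1440 CPM in untreated libraries. In the authors' deposited table KRT18, named for its p there, was lower after the pre-dose (adjusted p = 0.0420), as were 1.45% of all genes. In limma-trend on all libraries 0 of the 2 keratins passed. In replicates 2 and 3 alone 1 was called lower, against 3.47% of all genes. Of 5 mesenchymal genes, 4 had values and summed to 9929 to 11767 CPM in pre-dose and 9948 to 12133 CPM in untreated libraries, most of it VIM at 8704 to 10806 CPM in pre-dose and 8644 to 11123 CPM in untreated libraries. COL1A1, singled out after its values were seen, had 139, 321 and 258 CPM in pre-dose replicates 1, 2 and 3, against 159.5, 409 and 428 CPM in the untreated ones, lower in each pair. Its difference was -0.42 (-1.45 to 0.60) over all libraries and -0.54 in replicates 2 and 3 alone (limma adjusted p = 0.00259), and -0.62 in the authors' deposited table (adjusted p = 0.0865). Of 4 neuronal genes, SNAP25 and SYT1 had values and summed to 23.9 to 31.4 CPM in pre-dose and 20.3 to 26.9 CPM in untreated libraries, and the 5 leukocyte markers were not analysed here. The part of these lists in the results was not tested. The p53 target CDKN1A had 217, 573 and 472 CPM in pre-dose replicates 1, 2 and 3, against 162, 229 and 233 CPM in the untreated ones, and MDM2 had 57.5, 96.0 and 83.1 CPM against 49.96, 58.1 and 55.0 CPM.

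No lysosome or autophagy gene passed the test, and neither did any other gene. With limma-trend on log2(CPM + 1), 0 of 46 genes reached an adjusted p of 0.05 (Benjamini-Hochberg over all genes tested), as did 0% of all 13616 genes, and each of the 46 had an adjusted p of 1.00. At an unadjusted p under 0.05 the count was also 0 of 46, against 2.06% of all genes (1.25% higher and 0.808% lower). CDKN1A, with a difference of 0.92 (0.11 to 1.73), did not pass after adjustment in this fit either. In replicates 2 and 3 alone it did (limma adjusted p = 2.27e-05). A fit that calls no gene does not set the 46 apart from the rest. Voom, run on counts estimated from the deposited log2 CPM, called 0 of 46 too, without or with library quality weights. With the weights it called 0.793% of all genes. In the authors' deposited table CTSB alone of the 46 passed an adjusted p of 0.05, as higher, against 3.05% of all genes in either direction and 1.61% as higher. At an unadjusted p under 0.05 the authors' deposited table had 11 of the 46, 9 higher and 2 lower, against 23.3% of all genes (12% higher and 11.2% lower). In bulk libraries such as these, a change in the share of cells that express a gene and a change in its RNA per cell cannot be told apart.

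The differences were small in every member. On the log2(CPM + 1) scale they ran from -0.13 (ATG5) to 0.14 (NBR1), with a median size of 0.06, the same as over all genes tested (0.06). The 95% intervals of all 46 lay inside a 1.5-fold change either way (0.58 on the log2 scale), the widest bounds being -0.40 for OPTN and 0.48 for GABARAPL1. Of all genes tested, 92.4% had such an interval. The median half-width was 0.20 for the 46 genes and 0.24 for all genes (log2), and no estimate of the 46 was larger in size than 0.20.

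**Figure D1:**
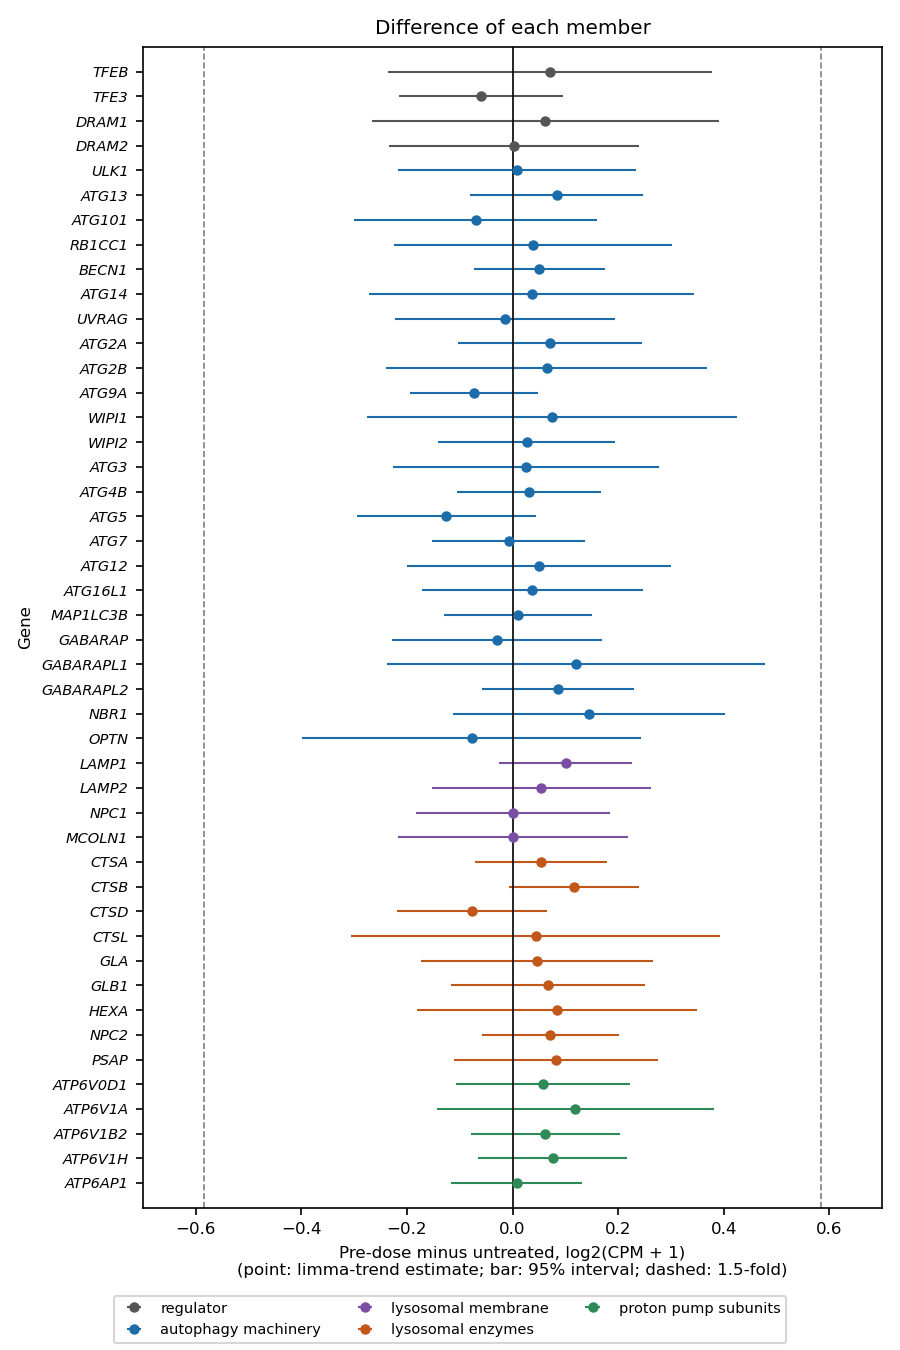
Difference of each of the 46 genes, pre-dose minus untreated, on the log2(CPM + 1) scale. Points are limma-trend estimates and bars 95% intervals over 3 libraries a group, coloured by class, with dashed lines at a 1.5-fold change. Most points lie to the right of 0, and every bar stays inside the dashed lines.

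The small differences leaned to one side. The estimate was above 0 for 37 of the 46 genes (80.4%), against 49.4% of all genes tested, and the median was 0.05 against -0.001. It was above 0 for 17 of 24 genes of the autophagy machinery (median 0.03), 8 of 9 lysosomal enzymes and cofactors (median 0.07), 5 of 5 proton pump subunits (median 0.06), 4 of 4 membrane proteins (median 0.03) and 3 of 4 regulators (median 0.03). These are counts of estimates that did not pass singly, and genes are not replicates. The list was also chosen with earlier results of these data known.

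The lean was weakest in the replicate 1 pair. There 24 of 46 genes were higher in the pre-dose library, against 35 and 31 in the replicate 2 and 3 pairs. Of the 13616 genes tested, 6590, 6715 and 6870 were higher in the replicate 1, 2 and 3 pairs. The median difference of the autophagy machinery was near 0 for replicate 1, 0.05 for replicate 2 and 0.03 for replicate 3 (log2). The lysosomal enzymes and cofactors had 0.01, 0.09 and 0.08. The proton pump subunits gave medians of 0.09, 0.07 and 0.08, with 3, 4 and 5 of the 5 genes higher in the replicate 1, 2 and 3 pairs. Over the libraries left without untreated replicate 1, which leave pre-dose replicate 1 unpaired, the autophagy machinery had a median of -0.01. The median of all genes tested was near 0 in each pair. Genes higher in all 3 pairs numbered 15 of 46, against 15.6% of all genes, and genes lower in all 3 numbered 4 of 46, against 16.3%.

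**Figure D2:**
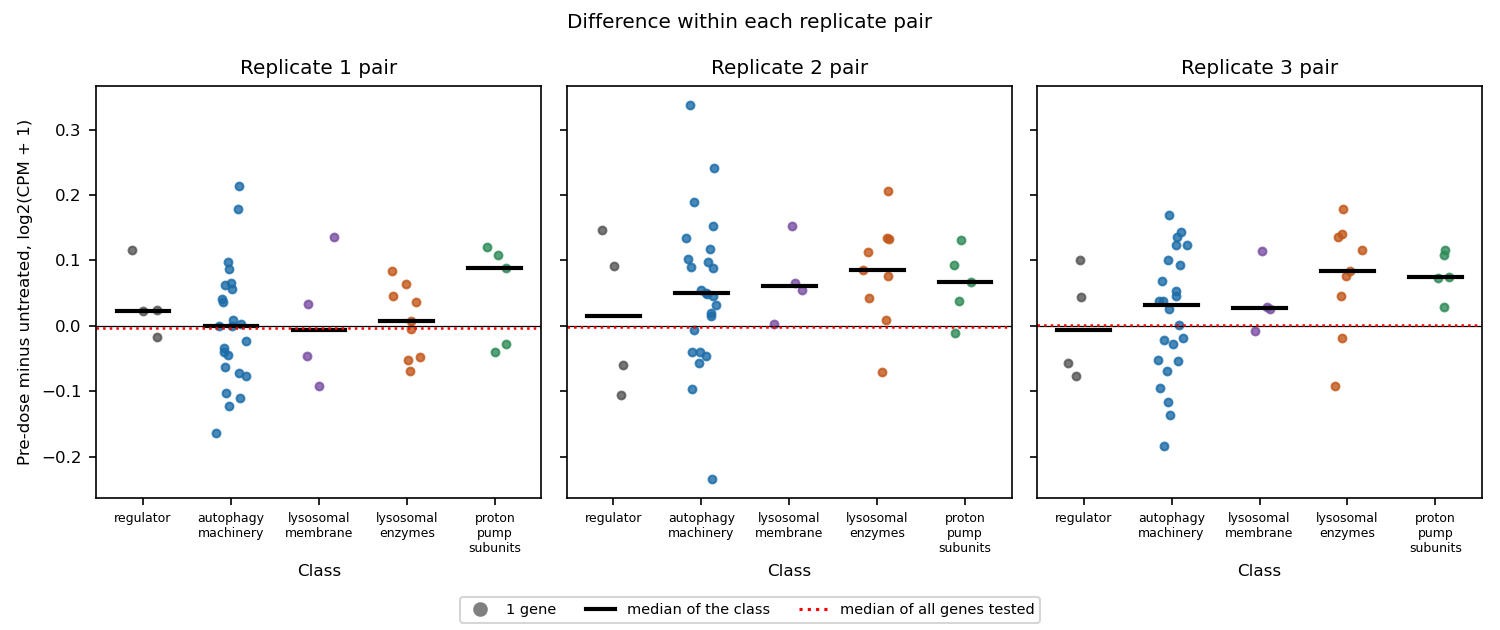
Difference between the pre-dose and the untreated library of each replicate pair on the log2(CPM + 1) scale, with 1 point per gene, by class. Black bars are class medians and the red dotted line is the median of all genes tested, which is near 0 in each pair. The pump subunits have medians of 0.09, 0.07 and 0.08, and the enzymes and cofactors sit at 0.01 in the replicate 1 pair.

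Differences between replicate 1 and the other replicates were larger than those between the groups. Averaged over both groups, the replicate 1 libraries differed from the other 4 by a median size of 0.17 on the log2 scale across the 46 genes, and the offset exceeded the treatment difference in 37 of them (80.4%), as in 76.8% of all genes tested. CTSL, a cysteine cathepsin, had an offset of 0.39, and WIPI1, a lipid-binding protein of the forming autophagosome, had one of -0.38. The labels name no batch, and what sets replicate 1 apart was not tested.

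**Figure D3:**
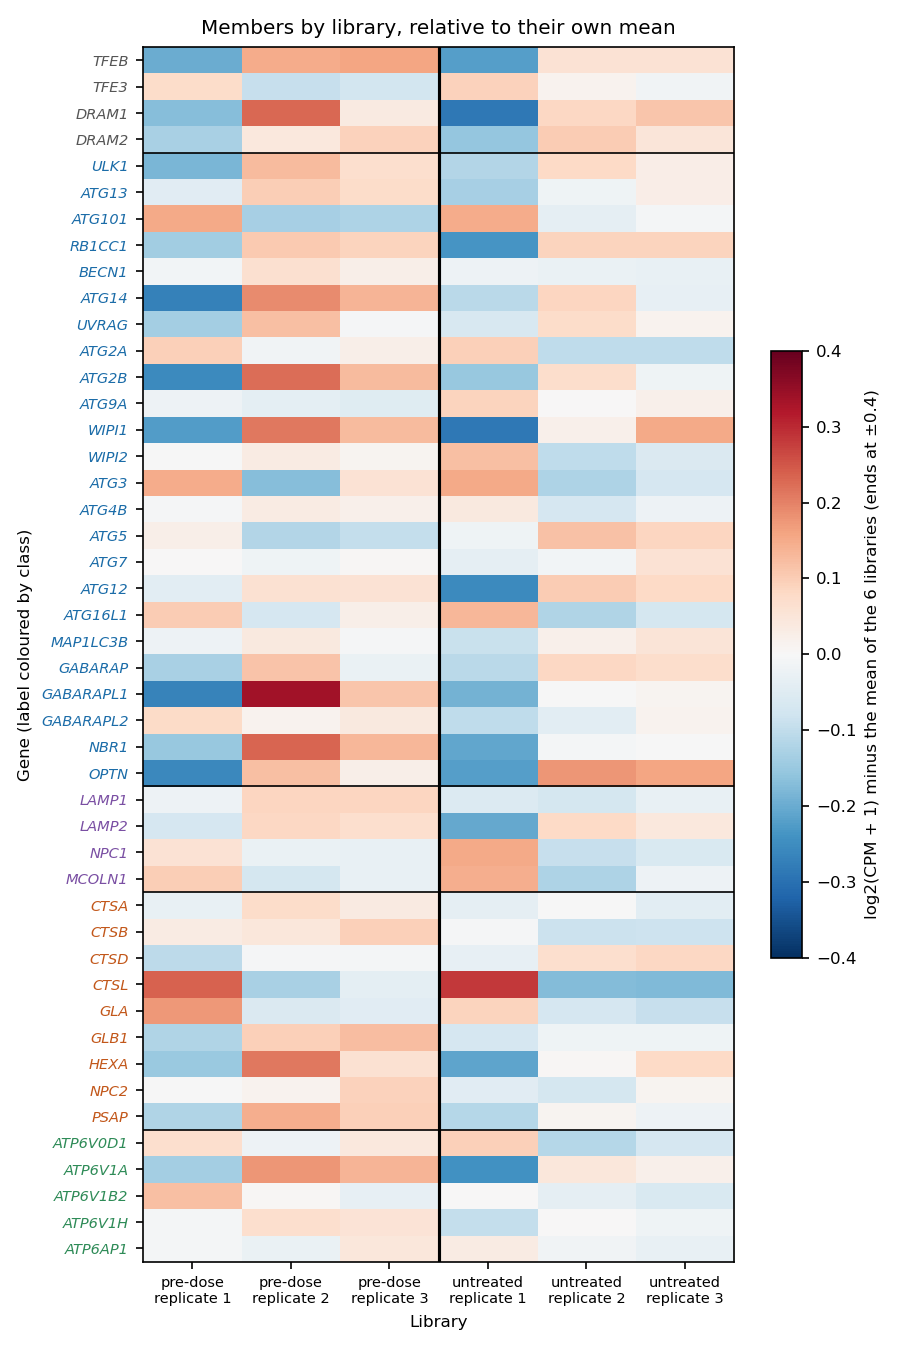
Log2(CPM + 1) of each of the 46 genes in the 6 libraries, as the deviation from the gene's own mean, with pre-dose libraries left and untreated libraries right of the black line. Rows are grouped by class. In many rows both replicate 1 columns share a colour that the other 4 columns do not, as for CTSL (offset 0.39) and WIPI1 (offset -0.38).

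The transcription factors at the head of the system differed in sign. TFEB had 9.24, 12.0 and 12.1 CPM in pre-dose replicates 1, 2 and 3, against 9.08, 11.2 and 11.2 CPM in the untreated ones. The pre-dose library was the higher in each pair, but the groups overlapped, with both replicate 1 libraries low. The difference was 0.07 on the log2 scale, with a 95% interval of -0.24 to 0.38. TFE3, the related factor, had 150.1, 134 and 135 CPM in pre-dose replicates against 152, 144 and 141 CPM in untreated ones, lower in each pair, with overlapping groups and a difference of -0.06 (-0.21 to 0.10). Per kb of exon, TFE3 stood at 33.3 CPM and TFEB at 1.91 CPM over the 6 libraries.

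DRAM1 and DRAM2 encode related membrane proteins. DRAM1, the p53 target, had 23.2, 30.9 and 26.9 CPM in pre-dose replicates 1, 2 and 3, against 21.4, 27.9 and 28.4 CPM in the untreated ones. It was higher in the replicate 1 and 2 pairs and lower in the replicate 3 pair, and the groups overlapped. Its difference was 0.06 with a 95% interval of -0.27 to 0.39. DRAM2 had 11.9, 13.6 and 14.1 CPM in pre-dose and 11.7, 14.2 and 13.6 CPM in untreated replicates, a difference of 0.00 (-0.23 to 0.24) with overlapping groups.

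Of the ULK kinase complex, 4 genes had values, 3 with estimates above 0. ATG13, the adaptor that joins the kinase to its partners, had 74.2, 82.1 and 80.6 CPM in pre-dose replicates 1, 2 and 3, against 69.8, 75.6 and 78.0 CPM in the untreated ones. It was higher in each pair, and pre-dose replicate 1 lay below untreated replicates 2 and 3. ATG101, which stabilises ATG13, had 42.4, 34.7 and 34.8 CPM in pre-dose and 42.3, 37.2 and 37.8 CPM in untreated replicates, almost equal in the replicate 1 pair and lower in the other pairs. Their differences were 0.08 (-0.08 to 0.25) and -0.07 (-0.30 to 0.16). The kinase ULK1 itself and RB1CC1, the scaffold of the complex, differed by 0.01 and 0.04.

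In the lipid kinase complexes, BECN1 was the member whose groups did not overlap. BECN1, the scaffold beclin 1, had 75.2, 79.4 and 77.0 CPM in pre-dose replicates 1, 2 and 3, against 74.8, 74.5 and 74.2 CPM in the untreated ones. Every pre-dose library was above every untreated one, and the untreated values were very close, with an SD of 0.279 CPM. The difference was 0.05 (-0.07 to 0.17). ATG14, which directs the complex to autophagosome formation, had 14.3, 20.0 and 19.2 CPM in pre-dose and 16.1, 18.5 and 17.0 CPM in untreated replicates, lower in the replicate 1 pair and higher in the others. UVRAG, the partner in endosomal complexes, differed by -0.01.

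Among the 5 genes that enlarge the membrane, ATG9A, a lipid scramblase, was lower in the pre-dose libraries without overlap. It had 163, 161 and 159.7 CPM in pre-dose replicates 1, 2 and 3, against 176, 165 and 168 CPM in the untreated ones, a difference of -0.07 (-0.19 to 0.05). ATG9A shares 38.8% of its exon bases with another annotated gene of the table on the same strand, and how reads were divided between them is not given in the sources used here. ATG2A, a lipid transfer protein, had 75.7, 70.1 and 71.8 CPM in pre-dose and 75.7, 65.9 and 65.8 CPM in untreated replicates, equal in the replicate 1 pair and higher in the others. ATG2B, WIPI1 and WIPI2 differed by 0.06, 0.08 and 0.03. WIPI1 shares 24.3% of its exon bases with ARSG on the opposite strand.

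Over the members, groups did not overlap for 4 genes, and they overlapped for all the others. LAMP1, CTSB and BECN1 were higher (3 of 46, against 3.36% of all genes) and ATG9A was lower (1 of 46, against 3.19%). The 4 together stand against 6.55% of all genes in either direction.

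Of 6 genes of the conjugation cascade, ATG5 had the largest difference below 0 of all 46. ATG5 (chromosome 6, 106045423 to 106325791, minus strand, GRCh38), which is joined to ATG12 to form the ligase that loads ATG8 proteins onto lipid, had 31.5, 28.4 and 28.8 CPM in pre-dose replicates 1, 2 and 3, against 30.5, 33.6 and 32.9 CPM in the untreated ones. Pre-dose replicates 2 and 3 were the lowest libraries, while replicate 1 went the other way, so the groups overlapped. The difference was -0.13 (-0.29 to 0.04) over all libraries and -0.21 in replicates 2 and 3 alone (limma adjusted p = 0.0432). In the authors' deposited table it was -0.19 with an adjusted p of 0.0515. ATG4B, the protease that primes ATG8 proteins, had 49.4, 50.7 and 50.3 CPM in pre-dose and 51.0, 47.3 and 48.9 CPM in untreated replicates and differed by 0.03. The remaining genes of the cascade, ATG3, ATG7, ATG12 and ATG16L1, lay between -0.01 (ATG7) and 0.05 (ATG12). ATG7 shares 18.1% of its exon bases with VGLL4 on the opposite strand.

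The 4 ATG8-family genes, whose products coat the autophagosome, had 3 estimates above 0 and 1 below. MAP1LC3B had 89.4, 93.4 and 90.5 CPM in pre-dose replicates 1, 2 and 3, against 85.3, 92.1 and 94.0 CPM in the untreated ones, and differed by 0.01 (-0.13 to 0.15). GABARAP had 101, 119.7 and 108 CPM in pre-dose and 103, 117 and 116 CPM in untreated replicates, a difference of -0.03 (-0.23 to 0.17). Both sets of libraries overlapped throughout. GABARAPL1 had 13.6, 21.2 and 18.0 CPM in pre-dose and 14.4, 16.5 and 16.7 CPM in untreated replicates. Its highest and its lowest library were both pre-dose, and its interval was the widest of the 46, -0.24 to 0.48 around 0.12. GABARAPL2 had 42.3, 40.4 and 41.2 CPM in pre-dose and 37.2, 38.9 and 40.4 CPM in untreated replicates, higher in each pair, with a difference of 0.09 (-0.06 to 0.23). MAP1LC3B and GABARAPL1 have near-identical copies in the genome (MAP1LC3B2 and GABARAPL3), so their counts are uncertain to the extent that reads were split. GABARAP shares 30.5% of its exon bases with another annotated gene on the same strand, and 25.2% with an entry of the table on the opposite strand.

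The cargo receptors NBR1 and OPTN, which tie ubiquitinated cargo to the membrane, differed in sign. NBR1 (chromosome 17, 43170481 to 43211689, plus strand, GRCh38) had 131, 171 and 159.7 CPM in pre-dose replicates 1, 2 and 3, against 126, 145 and 145 CPM in the untreated ones. The pre-dose library was the higher in each pair, and only pre-dose replicate 1 kept the groups from separating. Its difference of 0.14 (-0.11 to 0.40) was the largest above 0 of the 46, and it reached 0.19 in replicates 2 and 3 alone (limma adjusted p = 0.0198). OPTN had 90.1, 117 and 109.8 CPM in pre-dose and 92.6, 122 and 121 CPM in untreated replicates, lower in each pair, with a difference of -0.08 (-0.40 to 0.24). Both replicate 1 libraries were low for both receptors.

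Of the lysosomal membrane proteins, LAMP1 separated the groups. LAMP1 (chromosome 13, 113297241 to 113323672, plus strand, GRCh38), a major glycoprotein of the lysosomal membrane and the gene with the most CACGTG matches above, had 369, 397 and 397 CPM in pre-dose replicates 1, 2 and 3, against 360.5, 357 and 367 CPM in the untreated ones. Its means were 388 ± 16.2 CPM in pre-dose and 361 ± 5.18 CPM in untreated libraries (SD, n = 3 each). The difference was 0.10 (-0.03 to 0.23), and 0.13 in replicates 2 and 3 alone (limma adjusted p = 0.0337), and the authors' deposited table gave 0.13 with an adjusted p of 0.0604. LAMP2, its relative and the receptor of chaperone-mediated autophagy, had 141, 157 and 155 CPM in pre-dose and 129, 157 and 153 CPM in untreated replicates. It was higher in each pair, by almost nothing in the replicate 2 pair, and differed by 0.05 (-0.15 to 0.26). NPC1, which exports cholesterol from the lysosome, and MCOLN1, a calcium channel, both differed by 0.00, with intervals of -0.18 to 0.18 and -0.22 to 0.22.

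CTSB had the smallest unadjusted p of the 46 in limma-trend (0.0613). CTSB (chromosome 8, 11842524 to 11869448, minus strand, GRCh38) encodes cathepsin B, an abundant lysosomal cysteine protease. It had 606, 612 and 634 CPM in pre-dose replicates 1, 2 and 3, against 591, 558 and 559.8 CPM in the untreated ones. Every pre-dose library exceeded every untreated one, with the smallest gap in the replicate 1 pair. The means were 617 ± 14.6 CPM in pre-dose and 569.6 ± 18.2 CPM in untreated libraries (SD, n = 3 each), and the difference was 0.12 (-0.01 to 0.24). It was 0.16 in replicates 2 and 3 alone (limma adjusted p = 0.0185), and the authors' deposited table gave 0.16 with an adjusted p of 0.0358.

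CTSD, the aspartic protease cathepsin D and the most abundant transcript of the list, had an estimate below 0; its values, like those of GLB1, are given by choice after they were seen. It had 1548, 1660.0 and 1654 CPM in pre-dose replicates 1, 2 and 3, against 1625, 1743 and 1762 CPM in the untreated ones. It was lower in each pair by a like amount, -0.07, -0.07 and -0.09 on the log2 scale, though the groups overlapped, and it differed by -0.08 (-0.22 to 0.07). CTSD shares 41.7% of its exon bases with another annotated gene of the table on the same strand. NPC2, the soluble cholesterol carrier that hands sterol to NPC1, had 143, 145 and 153 CPM in pre-dose and 139, 136 and 144 CPM in untreated replicates, higher in each pair, with a difference of 0.07 (-0.06 to 0.20). The remaining enzymes and cofactors lay between 0.04 (CTSL) and 0.08 (HEXA). CTSL has several annotated pseudogenes, and HEXA shares 10.1% of its exon bases with a gene of the table on the opposite strand. Among the rest, GLB1, the beta-galactosidase stained as a marker of senescent cells, had means of 60.0 ± 5.47 CPM in pre-dose and 57.1 ± 1.16 CPM in untreated libraries (SD, n = 3 each), a difference of 0.07 (-0.12 to 0.25). PSAP, the precursor of the saposins that help glycolipid hydrolases, differed by 0.08, CTSA, a carboxypeptidase, by 0.05, and GLA, the alpha-galactosidase, by 0.05.

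The 5 proton pump genes all had estimates above 0. The pump couples a rotating head that splits ATP (ATP6V1A and ATP6V1B2, with ATP6V1H as a regulatory subunit) to a membrane ring reached through ATP6V0D1, and ATP6AP1 is an accessory protein. ATP6V1H had 49.8, 52.5 and 52.0 CPM in pre-dose replicates 1, 2 and 3, against 46.7, 50.1 and 49.4 CPM in the untreated ones, higher in each pair by 0.09, 0.07 and 0.07 on the log2 scale. ATP6V1A had 66.2, 82.4 and 80.1 CPM in pre-dose and 61.3, 75.1 and 73.9 CPM in untreated replicates, higher in each pair by 0.11, 0.13 and 0.12. In both genes the groups overlapped, while the pairs gave like differences. Their estimates were 0.08 (-0.06 to 0.22) and 0.12 (-0.14 to 0.38). With the replicate number as a block, their intervals were -0.02 to 0.17 and 0.03 to 0.20. Neither gene passed after adjustment in that fit (limma adjusted p = 0.550 and 0.381). ATP6V1B2, ATP6V0D1 and ATP6AP1 differed by 0.06, 0.06 and 0.01. Summed over the 5 genes, the pump transcripts made up 497, 496 and 501 CPM in pre-dose replicates 1, 2 and 3. The untreated replicates had 483, 477 and 475 CPM. These sums do not overlap, although for each of the 5 genes the groups overlapped. How often such sums of other genes separate was not computed, and a sum weighs the highest genes most. In the replicate 1 pair 3 of the 5 genes were higher, with the largest gain in CPM for ATP6V1B2 (145 against 133 CPM). The sums over 21 other pump subunits and assembly factors, 928 to 988 CPM in pre-dose and 907 to 975 CPM in untreated libraries, do overlap. The summed lysosomal enzymes and cofactors overlap, at 3748, 4109 and 4081 CPM in pre-dose against 3807, 3987 and 3989 CPM in untreated replicates. So does the summed autophagy machinery, at 1450, 1595 and 1552 CPM against 1459, 1533 and 1541 CPM.

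**Figure D4:**
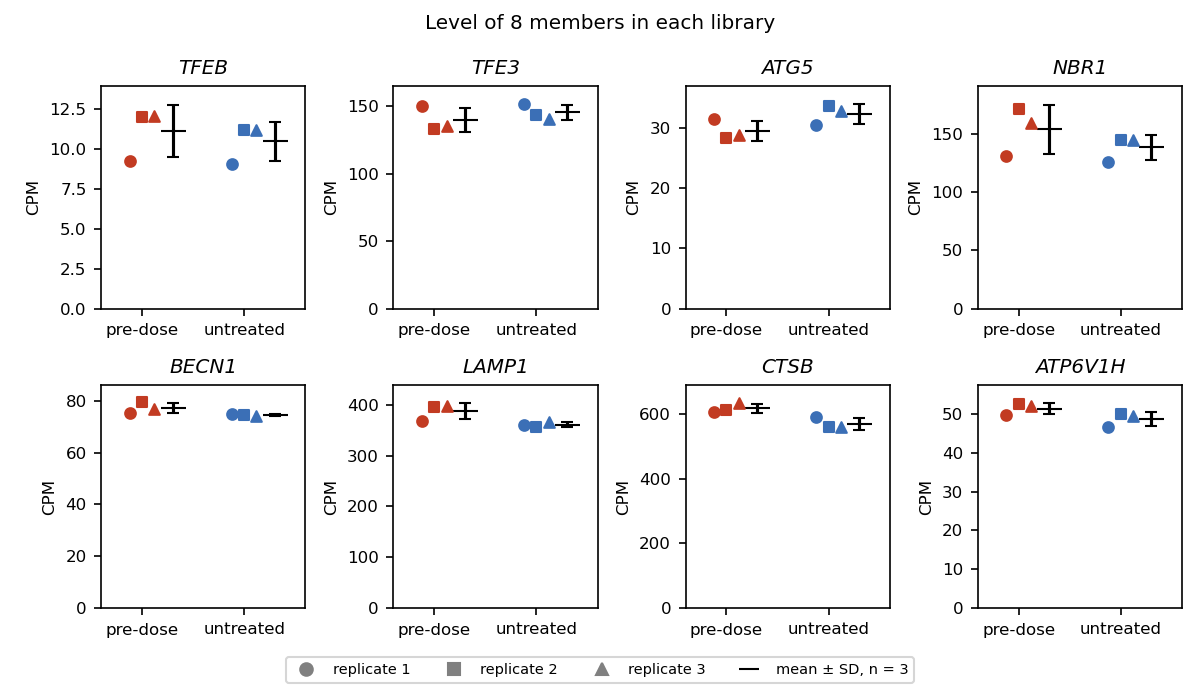
CPM of 8 genes in each library, with pre-dose left of untreated, a marker for each replicate and the mean ± SD of 3 libraries beside it, on axes that start at 0. BECN1, LAMP1 and CTSB separate the groups, ATG5 is low in pre-dose replicates 2 and 3, and the differences are small against the level of each gene.

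Replicates 2 and 3 alone, 4 libraries without the replicates that stood apart, called 4 of the 46 genes. CTSB, LAMP1 and NBR1 rose there (3 of 46, against 2.89% of all genes as higher) and ATG5 fell (1 of 46, against 3.47% as lower), all at the adjusted p values given above. The 4 calls are 1 enzyme, 1 membrane protein and 2 genes of the autophagy machinery, and 0 of the 5 pump subunits. With 6.36% of all genes called there in either direction, 4 of 46 is close to the background. With the replicate number as a block, 0 of 46 passed after adjustment, as did 0% of all genes. At an unadjusted p under 0.05 that fit gave 5 of 46 (CTSB, LAMP1, NBR1 and ATP6V1A higher, CTSD lower), against 10.6% of all genes (5.2% higher and 5.4% lower), again near the background.

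The 5 genes with the CLEAR core had estimates of 0.10 (LAMP1), 0.06 (ATP6V0D1), 0.05 (CTSA), 0.03 (ATG3) and 0.00 (MCOLN1), with a median of 0.05. The 32 members with values and a window but no core had a median of 0.04, with 24 of them above 0. Outside the list, 221 tested genes with the core had a median of 0.001, with 113 above 0, and 9704 tested genes with a window and no core had a median of -0.003. These medians are descriptions, and no test was run on them.

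Levels between genes are compared per kb of exon, from the merged exons of GENCODE release 29. CTSD stood first with 533 CPM per kb (495 to 564 over the 6 libraries) and PSAP next with 370.4 (340.1 to 409), and their libraries did not overlap. CTSB (79.9), LAMP1 (65.3) and NPC2 (52.1) followed, CTSB and LAMP1 without overlap between their libraries. NPC2 and GABARAP (48.9) overlapped, and GABARAP was the highest gene of the autophagy machinery. The lowest were ATG12 (2.91), UVRAG (2.72) and TFEB (1.91), and TFEB, at 1.61 to 2.14, lay below both others in all 6 libraries.

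**Figure D5:**
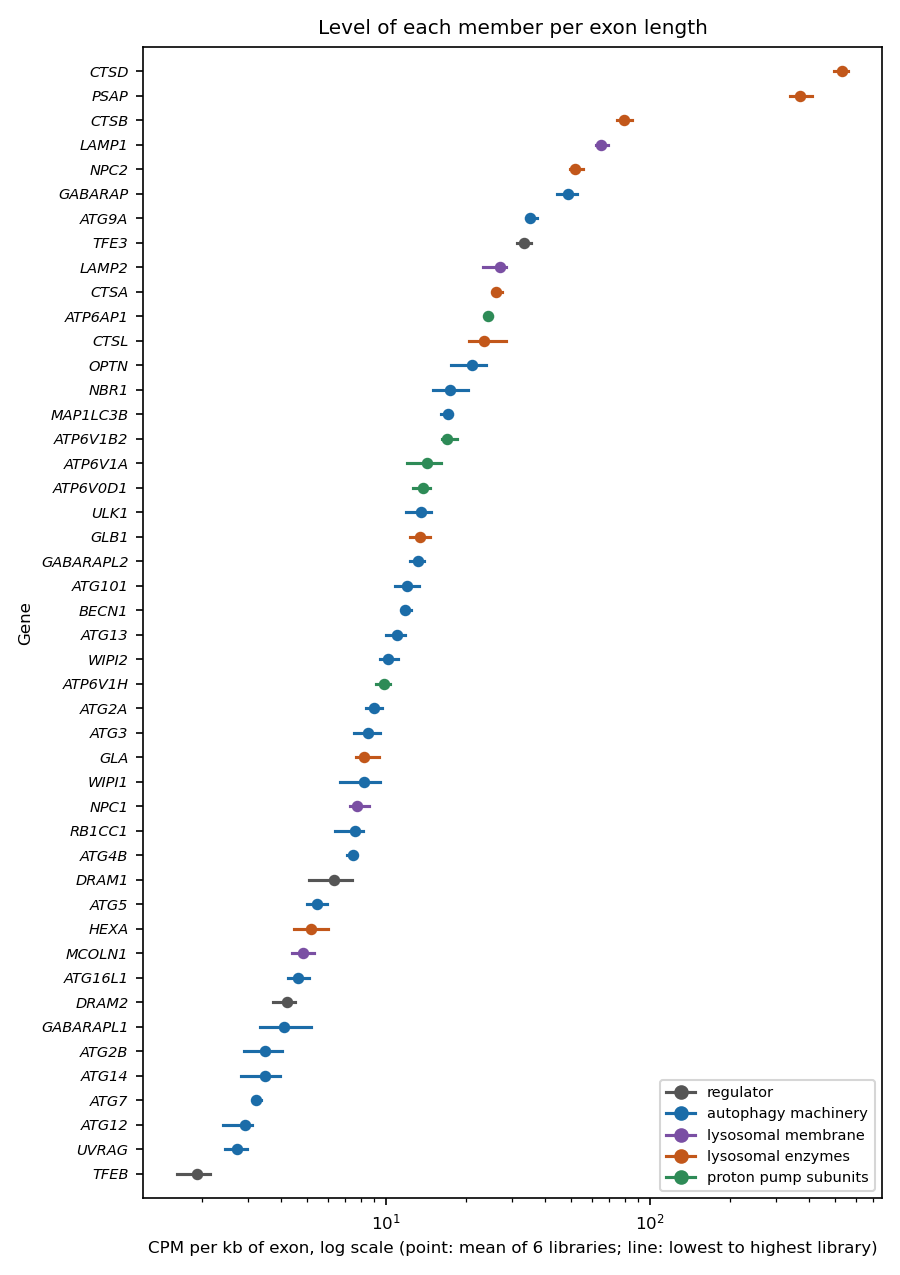
Level of each of the 46 genes in CPM per kb of exon on a log axis, from CTSD at 533 to TFEB at 1.91. Points are means of the 6 libraries and lines run from the lowest to the highest library, coloured by class. Lysosomal enzymes and cofactors hold the top 3 places, and the lowest 3 are ATG12, UVRAG and TFEB.

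A further 117 genes of the same pathways were listed, and 106 of them had values and were tested. None passed an adjusted p of 0.05 in limma-trend, 1 had an unadjusted p under 0.05 (against 2.06% of all genes), and 0 were called by voom with library quality weights. In replicates 2 and 3 alone 5 of the 106 rose (IDS, RPTOR, FYCO1, CTSC and IGF2R) and WDR45B fell, with limma adjusted p values of 0.0134 for IDS to 0.0381 for WDR45B, against 2.89% of all genes as higher and 3.47% as lower. With the replicate block 0 passed after adjustment, as did 0% of all genes. At an unadjusted p under 0.05, 10 were higher and 1 lower, against 5.2% and 5.4% of all genes. Estimates were above 0 for 78 of the 106, with a median of 0.03. These genes too were listed with earlier results of these data known. Of 21 other pump subunits and assembly factors 15 were above 0 (median 0.02), and of 31 other lysosomal enzymes and cofactors 22 were (median 0.05). The smallest unadjusted p values among estimates above 0 all belonged to pump subunits. ATP6V0A4, a form of the membrane subunit a, had 2.53, 2.57 and 2.68 CPM in pre-dose replicates 1, 2 and 3, against 1.54, 1.84 and 2.36 CPM in the untreated ones, a difference of 0.31 (0.02 to 0.61) with an unadjusted p of 0.0409 and a limma adjusted p of 1.00. ATP6V0A1, another form of subunit a, had 52.97, 57.6 and 53.4 CPM in pre-dose and 49.9, 48.8 and 50.3 CPM in untreated replicates. ATP6V1F, a subunit of the rotor, had 55.8, 54.8 and 55.5 CPM in pre-dose and 48.3, 52.6 and 51.0 CPM in untreated replicates. Groups did not overlap for any of these 3 genes, which were chosen for their p. Over the 106, 7 were higher without overlap and 0 lower, against 3.36% and 3.19% of all genes. ATP6V0A1 and ATP6V1F each differed by 0.13. RRAGA, a GTPase that recruits mTORC1 to the lysosome, WDR45B, a relative of WIPI1, and PIK3R4, the regulatory subunit of the lipid kinase, had the smallest p values among estimates below 0, each with a difference of -0.09. In the authors' deposited table IDS, a lysosomal sulfatase, was the only one of the 106 past an adjusted p of 0.05, as higher (0.0430), against 1.61% of all genes as higher and 3.05% in either direction. IDS had 117, 135 and 137 CPM in pre-dose and 110.3, 121 and 118 CPM in untreated replicates, higher in each pair.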

How the data were processed

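Poly-A selected RNA from 3 pre-dose and 3 untreated libraries was sequenced in paired ends, per the labels' protocols. The authors deposited log2 CPM values per gene and library together with their own log2 fold changes, p-values and adjusted p-values. Their fold changes were taken as untreated minus pre-dose and are given here with the sign turned. The turned sign matched the difference between the group means of the deposited log2 CPM in 83.5% of genes. Tools listed in the submitters' processing notes are bcl2fastq, DRAGEN, edgeR and limma, with the build hg38. How reads were counted, and with what use of strand, is not given in the sources used here.

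Of 13773 entries, 77 repeated identifiers were dropped, leaving 13696 genes. Values were turned back into CPM, and log2(CPM + 1) was tested with limma-trend (limma 3.58.1, R 4.3.3) over the 13616 genes that averaged 1 CPM or more, with Benjamini-Hochberg adjustment and a threshold of 0.05. The scripts were tested on simulated data. That run does not show how small a difference the test can call in these libraries. CDKN1A, with a difference of 0.92 on the log2 scale, did not pass after adjustment in limma-trend on all libraries. For voom, counts were estimated by reading the lowest value of each library as 0 counts plus 0.5. Of the estimates under 200 reads, 57.7% to 60.2% in each library lay within 0.05 of a whole number. Figures were drawn with matplotlib 3.10.9. Intervals are 95% limma intervals, without the replicate block unless stated, and differences on this scale understate those of low genes.

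Replicate numbers come from the sample titles. Same-numbered libraries were paired by these titles. Deviations from the group means of same-numbered libraries correlated across genes at 0.664, 0.454 and 0.176. Pre-dose replicate 2 correlated more with untreated replicate 3 (0.515), and pre-dose replicate 3 more with untreated replicate 2 (0.276). Deviations from a mean of 3 sum to 0, so the offset of replicate 1 alone can make replicates 2 and 3 correlate in either matching. The correlations therefore cannot show that replicates 2 and 3 are paired as numbered. The fit with the replicate block is an alternative, beside other pseudocounts, filters and scalings, voom, library quality weights, replicates 2 and 3 only and each library left out.

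The members and lists were chosen with earlier results of these data known. Values per library are given for the regulators, the ATG8 family, in each other role the 2 genes of lowest unadjusted p, and genes past an adjusted p of 0.05 in any fit named or in the authors' deposited table. Of the other pathway genes, the 3 with the smallest p in each direction and those past 0.05 in that table are named. Values of CTSD, GLB1 and COL1A1, the mention of KRT18, and the names of other pathway genes called in replicates 2 and 3 only, were added after the values were seen.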

Additional observations from a re-analysis of the deposited data

How the results depend on the processing

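Counts of calls depended on how replicate 1 was treated. Replicates 2 and 3 only gave 866 genes past the threshold, 4 of them on the list, and voom with library quality weights gave 108 genes and 0 on the list, against 0 and 0 in limma-trend on all 6 libraries. Fewer libraries, or less weight on replicate 1, is the alternative's own construction, and the cause beyond that was not tested. The replicate block, other pseudocounts, other filters, median-of-ratios scaling and unweighted voom gave 0 calls, and the replicate block changed no call (0 of 46).

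Leaving out each library in turn, the median difference ran over -0.011 to 0.045 for the autophagy machinery. It ran over 0.036 to 0.090 for the lysosomal enzymes and cofactors, and 0.039 to 0.068 for the pump. The estimate changed sign with a library left out for 25 genes, over ranges of TFEB -0.021 to 0.19, DRAM1 -0.065 to 0.16, DRAM2 -0.073 to 0.068, ULK1 -0.054 to 0.10, RB1CC1 -0.070 to 0.12, ATG14 -0.049 to 0.18, UVRAG -0.078 to 0.050, ATG2B -0.031 to 0.21, WIPI1 -0.049 to 0.21. Further ranges were WIPI2 -0.018 to 0.094, ATG3 -0.043 to 0.12, ATG7 -0.027 to 0.020, ATG12 -0.064 to 0.11, ATG16L1 -0.013 to 0.11, MAP1LC3B -0.031 to 0.038, GABARAP -0.093 to 0.029, GABARAPL1 -0.017 to 0.28, OPTN -0.21 to 0.032. The last were LAMP2 -0.033 to 0.11, NPC1 -0.045 to 0.076, MCOLN1 -0.061 to 0.073, CTSL -0.063 to 0.20, GLA -0.029 to 0.10, HEXA -0.00094 to 0.18, ATP6AP1 -0.013 to 0.026. Of these genes TFEB, RB1CC1, LAMP2 and GLA were higher in every replicate pair, and OPTN was lower in every pair.

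Estimates on the other side of 0 were, with median-of-ratios scaling, NPC1 -0.0013 and MCOLN1 -0.0010, and with unweighted voom MCOLN1 -0.00062. With quality weights they were ATG12 -0.020 and MAP1LC3B -0.023. With replicates 2 and 3 only they were DRAM2 -0.0079, UVRAG 0.014, ATG12 -0.031 and MAP1LC3B -0.017. The cause was not tested. With 3 libraries a group, differences as small as these estimates lie within the intervals, and 3 counts equal at most 0.114 CPM, below the level of every gene of the list.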
